A study of Mus musculus with 7 samples.

Results

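The genes of the cytosolic ribosome were followed in hearts labelled as double knockouts of the kinases Akt1 and Akt2 in cardiomyocytes. Members were chosen by symbol: genes whose symbol starts with Rpl or Rps and a digit, with Rplp0, Rplp1, Rplp2 and Rpsa, measured by a probe for a RefSeq protein-coding transcript. Ribosomal S6 kinases, Rps19bp1 and pseudogenes were left out, and each gene was represented by its brightest probe. Of 87 genes with such a probe, 84 gave a signal well above background on 3 or more arrays and 82 had a value on every array, out of 23677 genes tested in the whole series. These 82 comprised 49 genes of the large and 33 of the small subunit, and each was well above background on all 7 arrays, so the filter on dim probes did not favour either group.

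RNA came from the heart apex of male C57Bl/6 mice aged 3 months, with a separate mouse and a single-colour Agilent array for each sample. The 3 double knockout mice (DKO) were heterozygous for MHC-mercremer, a recombinase under the αMHC promoter that tamoxifen activates, and homozygous for floxed Akt1 and Akt2. The 4 control mice were heterozygous for MHC-mercremer and had no floxed allele in their labels. Both groups had hydroxytamoxifen, 500 µg a day for 5 days, and hearts were taken 10 days after induction. The recombinase is restricted to cardiomyocytes, so the other cells of the apex kept both kinases and contributed RNA to every value. All 10 cardiomyocyte markers listed, among them Myh6 and Tnnt2, were measured on all 7 arrays. Akt2 signal was lower in every DKO heart, by 4.13-fold at its brightest probe (limma, adjusted p = 0.000203), whereas the Akt1 probes were not lower (log2 differences of 0.17 and 0.47; limma, adjusted p = 0.199 and 0.139). Whether the Akt1 probes fall inside the deleted exons was not examined.

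A ribosome is built from ribosomal RNA and a fixed set of proteins, which sit in a small subunit that reads the mRNA and a large subunit that joins the amino acids. Akt signals to the kinase complex mTORC1, which promotes ribosome synthesis and, through S6 kinases, phosphorylates the small subunit protein encoded by Rps6. The mRNAs of ribosomal proteins share a start of pyrimidines, the terminal oligopyrimidine (TOP) sequence, and mTORC1 is known to control their translation and, with the RNA-binding protein Larp1, their stability. In the heart, growth of cardiomyocytes depends on this supply of ribosomes.

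The sequence at the transcription start is the feature the members were known for, and it was read from RefSeq promoters of GRCm38.p6, which held 64 of the 84 genes. Windows of 50 bases, 30 before the annotated start and 20 from it on, are given on the gene's strand. Capitals mark an unbroken run of at least 8 pyrimidines (C or T), and the windows show the member with the smallest p (Rps27), the S6 kinase substrate (Rps6), a pair with long runs (Rps10 and Rpl28), and copies of core genes with and without a run (Rpl22l1 and Rpl3l).
Rps27, chr3:90213629-90213678, minus strand: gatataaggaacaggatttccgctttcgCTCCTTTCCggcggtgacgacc
Rps6, chr4:86857348-86857397, minus strand: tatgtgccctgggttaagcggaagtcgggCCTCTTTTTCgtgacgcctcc
Rps10, chr17:27635225-27635274, minus strand: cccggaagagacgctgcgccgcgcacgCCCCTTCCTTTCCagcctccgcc
Rpl28, chr7:4792935-4792984, plus strand: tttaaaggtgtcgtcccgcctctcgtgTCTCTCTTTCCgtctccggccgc
Rpl22l1, chr3:28805478-28805527, plus strand: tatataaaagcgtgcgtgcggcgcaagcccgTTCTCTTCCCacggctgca
Rpl3l, chr17:24727796-24727845, plus strand: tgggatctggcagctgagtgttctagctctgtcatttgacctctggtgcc

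A run of at least 8 pyrimidines stood in this window in 33 of the 64 members (51.6%), against 22.9% of 27025 genes in the same table. The run could lie anywhere in the window and need not begin at the start, and shorter runs were not counted. Members with and without a run are therefore not members with and without a TOP sequence. Other motifs were searched on both strands in the whole promoter of 300 bases, and a promoter could hold more than one of them. The core letters of ETS sites, CCGGAA, were found in 51.6% of members against 16.7% of all genes. The letters AANATGGC, the core of the YY1 motif, were found in 20.3% against 6.96%, and the GC box GGGCGG in 59.4% against 38.2%. TATAAA was found in 12.5% of members and 15.7% of all genes. These are letter matches and say nothing of which factor binds. The median log2 difference between DKO and control was 0.17 over the 31 fitted members with a pyrimidine run and 0.16 over the 31 without one.

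Most ribosomal protein transcripts had a slightly higher mean in DKO hearts, in both subunits, but no single gene passed the test. Signals are given on a log2 scale after each array was set to a common 75th percentile, and 74 of the 82 members were higher in DKO, while 46.9% of all genes were. The median log2 difference, DKO minus control, was 0.17, which is 1.12-fold, with quartiles of 0.12 and 0.21 and a range of -0.15 to 0.32. The median over all 23677 genes was -0.02. The standard error of a member's difference had a median of 0.076 and ran from 0.063 to 0.19. Differences of at least 0.10 were seen in 67 members (31.1% of all genes) and of at least 0.20 in 24 (18.3% of all genes).

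In limma's two-sided test with Benjamini-Hochberg adjustment over all 23677 genes, 0 members were called higher and 0 lower at a threshold of 0.05. Over all genes the test called 4.70%, with 2.41% higher and 2.29% lower. At an unadjusted p below 0.05, 31 members were higher and 0 lower, against 11.6% and 13.9% of all genes. With an adjusted p below 0.10, 9 members were higher, against 5.44% of all genes, and the smallest adjusted p was 0.0646. In 41 members every DKO array lay above every control array, against 13.2% of all genes, and in 0 members the order was the opposite, against 12.5%. The count of 31 changed when 1 array was left out, which also makes the groups smaller. It was 21, 24, 34 and 16 without control replicates 1, 2, 3 and 4. Without DKO replicates 1, 2 and 3 it was 20, 18 and 15. When limma's variance was allowed to follow signal level, 14 members were called higher (4.54% of all genes), and when arrays were weighted by quality, 1 was, Rps27 (3.59% of all genes). The members' transcripts are from 82 genes of the same 7 hearts, so they are not independent replicates of the comparison.

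**Figure D1:**
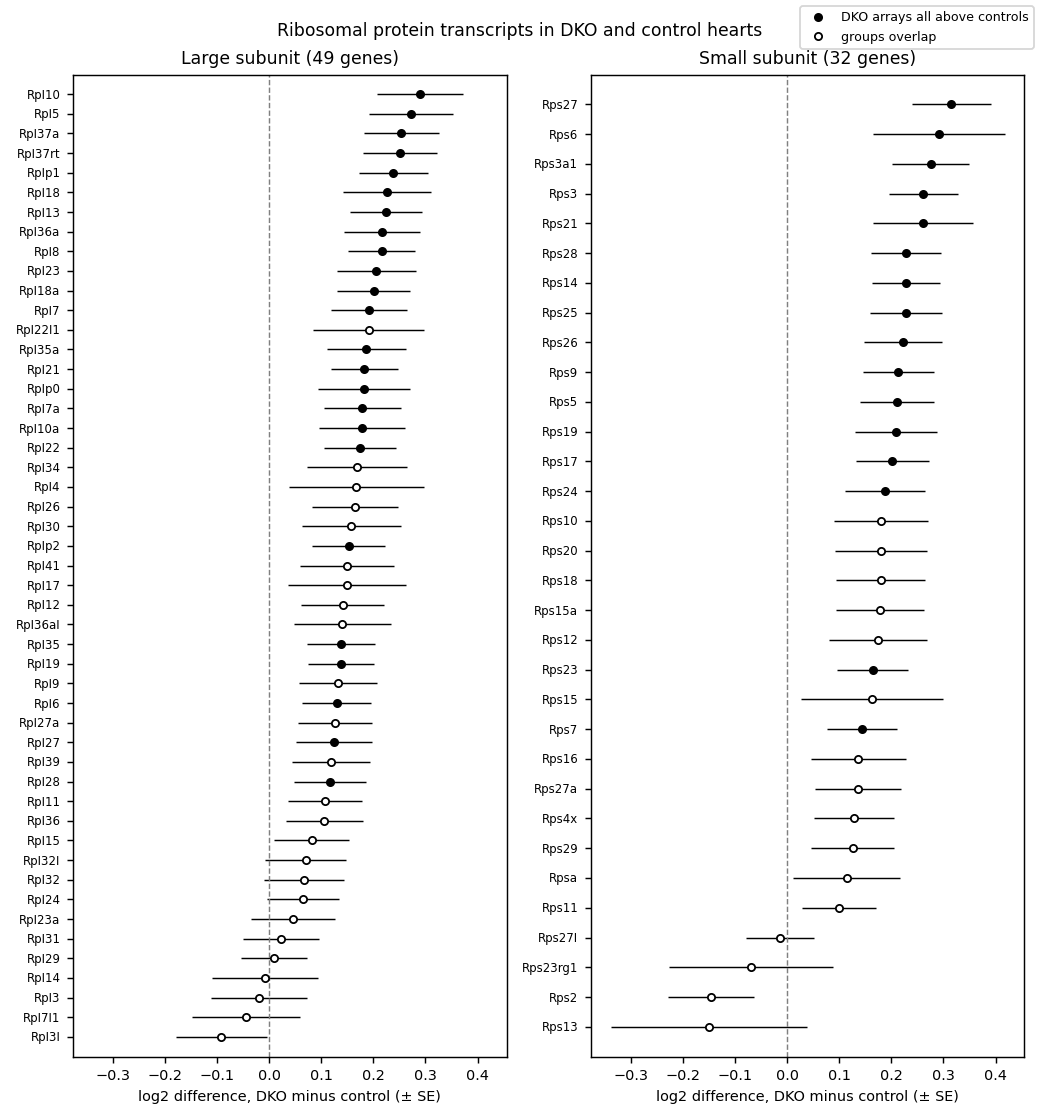
Log2 difference, DKO minus control, with its standard error for 49 large subunit (left) and 32 small subunit (right) genes, n = 3 DKO and 4 control arrays. Filled points mark the 40 drawn genes whose DKO arrays all lay above every control array, and 8 genes lie below 0.

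Each heart showed the shift separately. With each gene's control mean subtracted, the median signal of the 82 members was 0.16, 0.14 and 0.19 on the DKO arrays and -0.05, 0.01, 0.06 and -0.02 on the control arrays. The lowest DKO heart lay above the highest control heart, control replicate 3. Over all genes the same measure was -0.01, 0.00 and -0.04 on the DKO arrays and within 0.014 of 0 on the controls. Each array's row on its slide was inferred from the digits that end its scan name, and no label states it. By this reading, DKO replicate 3 (0.19) in the first row lay above control replicates 1, 3 and 4. In the second row DKO replicates 1 and 2 (0.16 and 0.14) lay above control replicate 2 (0.01).

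**Figure D2:**
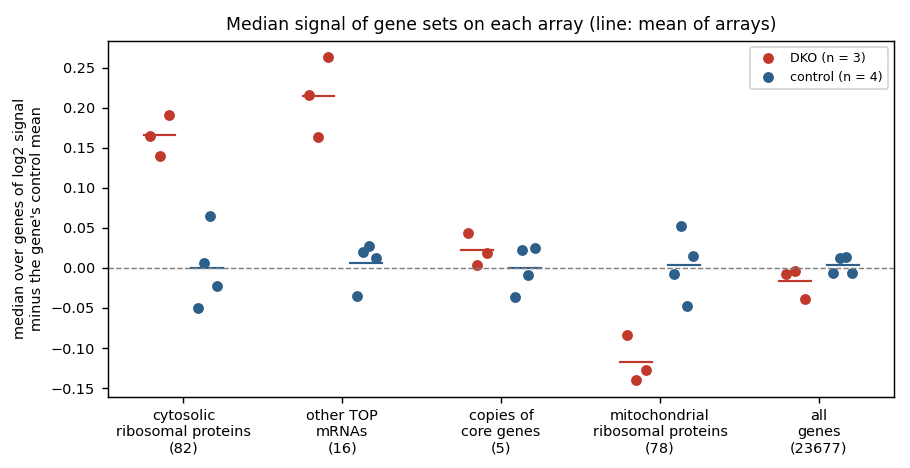
Median over the genes of each set of the normalized log2 signal minus the gene's control mean, 1 point per array, DKO left of control, with lines at the mean of the arrays. Cytosolic ribosomal proteins and other TOP mRNAs lie above 0.13 on all 3 DKO arrays, and mitochondrial ribosomal proteins lie below -0.08 on them.

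Subunits, brightness and the cells of the apex were set beside this shift. Large subunit genes had a median log2 difference of 0.15, with 45 of 49 higher in DKO, and small subunit genes 0.18, with 29 of 33 higher. Without the 8 genes that are copies of a core gene or retrogenes, 70 of 74 members were higher and the median was 0.17. Ribosomal protein probes are bright: 79 of the 82 were in the brightest 10% of genes. The other 2289 of these bright genes had a median difference of 0.05, with 1359 higher in DKO, and array medians of 0.07, 0.04 and 0.04 in DKO hearts against -0.03, 0.04, 0.00 and -0.01 in control hearts. Of these 2289 genes, 605 had every DKO array above every control array and 315 had every one below. At an unadjusted p below 0.05 (limma), 462 were higher and 254 lower, and 103 were called higher and 32 lower. The counts of higher genes are larger shares than those over all genes (13.2%, 11.6% and 2.41%). The shares over all genes are thus not matched to the members in brightness. The part of probe brightness in the members' shift was not tested.

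**Figure D3:**
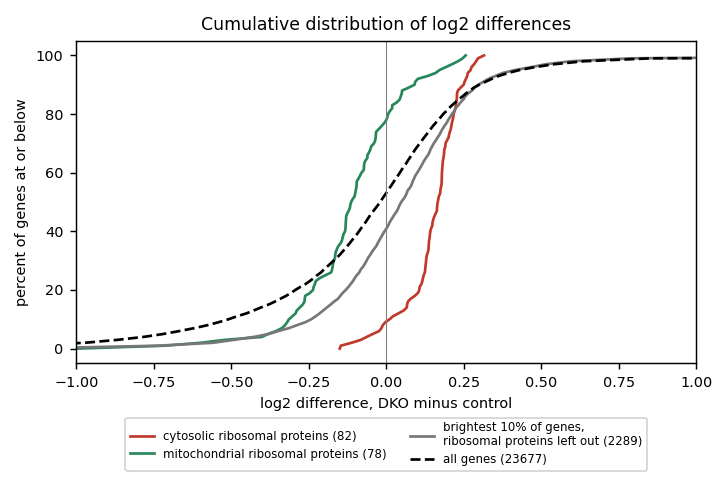
Percent of genes at or below each log2 difference, DKO minus control, for the members, mitochondrial ribosomal proteins, the brightest 10% of genes with the members left out, and all genes. The members' curve runs from -0.15 to 0.32 and crosses the middle at 0.17, to the right of the brightest 10% at 0.05 and of all genes at -0.02.

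Markers of other heart cells were read beside this. All 10 endothelial markers were higher in DKO with 0 called by limma and 3 at an unadjusted p below 0.05 (median log2 difference 0.20), and their summed signal, in units of 1000, was 119 to 121 in DKO hearts and 98.3 to 115 in control hearts. Of 10 fibroblast markers 9 were higher with 0 called and 3 at an unadjusted p below 0.05 (median 0.17), with sums of 210 to 236 in DKO and 194 to 200 in control hearts. The groups did not overlap in either sum, but a sum of linear signals gives most weight to its brightest marker. These were Fabp4 and Gsn, named after their values were seen, which differed by 0.30 and 0.22 without overlap (limma, adjusted p = 0.138 and 0.122). Sums without these genes were not examined. Taken singly, 4 of 10 endothelial and 3 of 10 fibroblast markers had every DKO array above every control array, against 13.2% of all genes. Of 8 mural cell markers 6 were higher (median 0.27), with 5 higher and 1 lower at an unadjusted p below 0.05. Myh11 passed the test (0.63, limma, adjusted p = 0.0487), Acta2, named after its value was seen, differed by -0.41 (limma, adjusted p = 0.128), and the sums were 69.9 to 79.4 in DKO and 70.1 to 83.1 in control hearts. The call of Myh11 was lost when any array was left out and in several other settings. Of 10 macrophage markers 8 were higher (median 0.09), and of 10 cardiomyocyte markers 3 were (median -0.06), with 0 called in either list and overlapping sums. At an unadjusted p below 0.05, 1 macrophage marker was higher, and 1 cardiomyocyte marker was higher and 3 were lower. For each marker list, the shares of all genes at this unadjusted p were 11.6% higher and 13.9% lower. Lymphocyte markers had a median of 0.14 and red cell markers 0.17, with 5 of 8 and 4 of 5 higher. Of 5 adipocyte and 5 mesothelial markers 2 each were fitted, with 1 of 2 higher in both lists. In RNA from whole apex more cells of a type and more RNA per cell cannot be told apart, and the part of cell composition in the members' shift was not tested.

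Among small subunit genes, Rps27, which encodes a zinc finger protein of the small subunit, had the largest difference. Its log2 signal was 16.24, 16.20 and 16.31 in DKO hearts, against 15.99, 15.94, 15.996 and 15.82 in control hearts. All DKO hearts lay above the highest control heart, with a difference of 0.32 ± 0.076 (SE; limma, adjusted p = 0.0646). A second probe for Rps27 gave 0.32 as well (limma over all probes, adjusted p = 0.0822). Rps3, whose protein lines the channel where mRNA enters, read 15.03, 14.99 and 15.09 in DKO hearts, against 14.74, 14.78, 14.83 and 14.77 in control hearts. The 3 DKO values were again the highest, with a difference of 0.26 ± 0.067 (SE; limma, adjusted p = 0.0727). Rps3a1, Rps14 and Rps28, further proteins of the small subunit, differed by 0.28, 0.23 and 0.23 with no overlap between groups (limma, adjusted p = 0.0822, 0.0934 and 0.0989).

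Rps6 encodes the protein that S6 kinases phosphorylate. Its brightest probe read 15.25, 15.09 and 15.30 in DKO hearts, against 14.62, 15.06, 15.03 and 14.99 in control hearts. The groups did not overlap, but control replicate 1 lay far below the other controls, and the difference of 0.29 ± 0.13 (SE; limma, adjusted p = 0.203) was 0.19 without it. A second Rps6 probe read 14.00, 14.03 and 14.01 in DKO hearts, against 13.64, 13.74, 13.78 and 13.78 in control hearts. On that probe control replicate 1 was again the lowest control, by a smaller gap, and the difference was 0.28 ± 0.071 (SE; limma over all probes, adjusted p = 0.0734). Rpsa, a small subunit protein also known as the laminin receptor, differed by 0.11 ± 0.10 with overlapping groups (SE; limma, adjusted p = 0.518). Rps16 lies 17 tested named genes from Akt2 on chromosome 7 and differed by 0.14 with overlapping groups (limma, adjusted p = 0.381).

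The stalk of the large subunit, formed by Rplp0, Rplp1 and Rplp2, recruits translation factors. Rplp1 read 15.96, 15.94 and 15.94 in DKO hearts, against 15.66, 15.71, 15.78 and 15.67 in control hearts. The DKO values lay close together and above every control, with a difference of 0.24 ± 0.067 (SE; limma, adjusted p = 0.0900). Rplp0, often used as a reference gene in PCR, read 16.32, 16.53 and 16.29 in DKO hearts, against 16.12, 16.27, 16.23 and 16.17 in control hearts, a difference of 0.18. Rplp2 read 17.01, 17.05 and 17.02 in DKO hearts, against 16.81, 16.87, 16.97 and 16.85 in control hearts, a difference of 0.15. All 3 stalk genes thus kept DKO above control on every array, with Rplp0 and Rplp2 further from the threshold (limma, adjusted p = 0.244 and 0.224).

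Rpl10, an X-linked gene whose protein joins the large subunit late in its maturation, read 17.01, 16.95 and 17.05 in DKO hearts, against 16.61, 16.79, 16.82 and 16.64 in control hearts. The groups did not overlap and differed by 0.29 ± 0.083 (SE; limma, adjusted p = 0.0937), the largest difference in the large subunit. Rpl36a, Rps4x and Rpl39, the other X-linked members, differed by 0.22, 0.13 and 0.12 (limma, adjusted p = 0.127, 0.337 and 0.356). Rpl5 and Rpl11 bind 5S ribosomal RNA before it enters the large subunit and, when ribosome assembly is disturbed, bind Mdm2, the ligase that degrades p53. Rpl5 read 13.88, 13.91 and 14.08 in DKO hearts, against 13.65, 13.71, 13.76 and 13.62 in control hearts. Its groups did not overlap (difference 0.27 ± 0.081, SE; limma, adjusted p = 0.101), whereas those of Rpl11 did (0.11 ± 0.071, SE; limma, adjusted p = 0.380). Rpl37a, Rpl37rt and Rpl8, all of the large subunit by symbol, differed by 0.25, 0.25 and 0.22 with no overlap (limma, adjusted p = 0.0925, 0.0929 and 0.101). Rpl37rt is the symbol of a retrogene, RefSeq lists Rpl37 among its synonyms, and signal from near-identical transcripts cannot be told apart here.

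**Figure D4:**
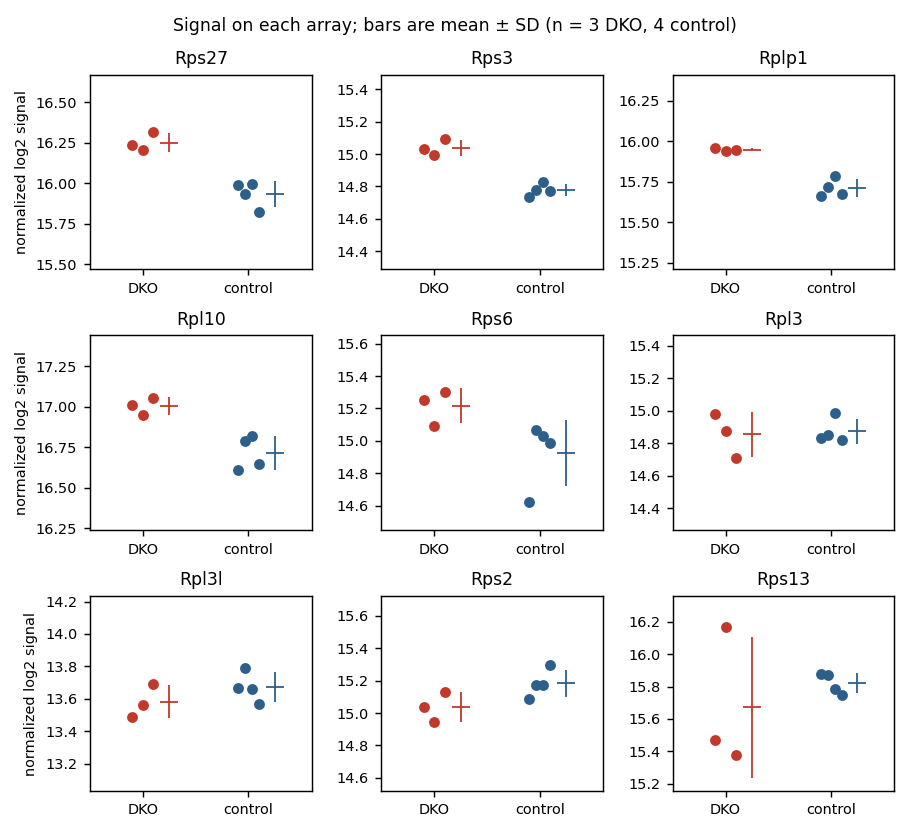
Normalized log2 signal on each array for 9 members, DKO left of control, with mean ± SD beside the points (n = 3 DKO and 4 control). Rps27, Rps3, Rplp1, Rpl10 and Rps6 show no overlap between groups, and Rpl3, Rpl3l, Rps2 and Rps13 do overlap, with DKO replicate 2 apart for Rps13.

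The 8 members with a lower mean in DKO did not pass the test either. Rps2, at the entry to the mRNA channel, read 15.04, 14.94 and 15.13 in DKO hearts, against 15.09, 15.17, 15.17 and 15.30 in control hearts. The groups overlapped by a single DKO heart, replicate 3, and the difference was -0.15 ± 0.083 (SE; limma, adjusted p = 0.315), with -0.08 at a second probe. Rps13 read 15.47, 16.17 and 15.38 in DKO hearts, against 15.88, 15.87, 15.79 and 15.75 in control hearts. Its difference of -0.15 ± 0.19 (SE; limma, adjusted p = 0.648) was set by DKO replicate 2, which lay above every control while the other DKO hearts lay below: it was -0.40 without that array (limma, adjusted p = 0.0953), -0.05 without DKO replicate 1 and -0.0029 without DKO replicate 3. Rpl3, near the site of peptide bond formation, read 14.98, 14.87 and 14.71 in DKO hearts, against 14.83, 14.85, 14.99 and 14.82 in control hearts. Here the lowest DKO heart lay below every control and the other DKO hearts lay among the controls, and the difference was -0.02 ± 0.091 (SE; limma, adjusted p = 0.914), with 0.04 and 0.03 at its other probes. Rpl14, Rps27l, Rpl7l1 and the retrogene Rps23rg1 differed by -0.01, -0.01, -0.04 and -0.07, each less than its standard error.

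Several core genes have a second gene with a similar symbol, and 5 of the 9 such copies listed were fitted. Whether the product of each copy is part of the mature ribosome was not examined, and Rpl7l1 was dim (mean log2 signal 8.53, against 15.45 for Rpl7). Their median difference was -0.01, although the median over them was 0.04, 0.00 and 0.02 on the DKO arrays, with 2 of 5 higher in DKO and overlapping groups for each, against 0.19 and 4 of 5 higher for the 5 core genes they copy. Rpl3l, a copy of Rpl3 expressed in striated muscle, read 13.49, 13.56 and 13.69 in DKO hearts, against 13.66, 13.79, 13.66 and 13.57 in control hearts. The groups overlapped (difference -0.09 ± 0.087, SE; limma, adjusted p = 0.542), as did those of Rpl3, so neither gene of this pair differed detectably. Rpl22l1 and Rpl22 differed by 0.19 and 0.17, Rpl36al and Rpl36a by 0.14 and 0.22, Rpl7l1 and Rpl7 by -0.04 and 0.19, and Rps27l and Rps27 by -0.01 and 0.32. Rpl9, whose own copy was not listed, differed by 0.13 with overlapping groups. The difference between a copy and its core gene was not tested.

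The remaining probes and genes of the set were accounted for. Another 60 probes represented 46 members, and 57 of them were higher in DKO (49.0% of 30466 probes), with a median of 0.17. At an unadjusted p below 0.05, 23 were higher (12.2% of all probes) and 0 lower, and 4 had the opposite sign to the gene's brightest probe. Of these probes 2 were called higher (2.33% of all probes), among them 1 for Rps9 (0.39 ± 0.078, SE; limma over all probes, adjusted p = 0.0436), a gene named here after its values were seen. The brightest probe of Rps9 gave 0.21 (limma, adjusted p = 0.115). Rpl38 had no value on DKO replicate 1, and its remaining arrays differed by 0.09. Rpl13a had none on control replicate 2, and its remaining arrays differed by -0.01. The probes of Rpl37, Rpl39l and Rpl10l were well above background on 1, 0 and 0 arrays.

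Genes that share the TOP start or handle ribosomal proteins were read from lists of the pathway. Fau and Rack1, ribosomal proteins under other symbols, differed by 0.16 and 0.18, with 0 called by limma, 0 at an unadjusted p below 0.05, and overlapping groups. Of 16 other TOP mRNAs fitted, mostly elongation and initiation factors, 15 were higher in DKO with a median of 0.21, and 2 rose past the threshold (2.41% of all genes). Eef2, the factor that moves the ribosome along the mRNA, read 16.33, 16.34 and 16.39 in DKO hearts, against 15.87, 15.88, 15.94 and 15.91 in control hearts. The groups lay far apart for their spread (0.46 ± 0.064, SE; limma, adjusted p = 0.0160). Eif4b, a helper of the helicase that unwinds mRNA starts, read 12.95, 13.02 and 13.03 in DKO hearts, against 12.26, 12.45, 12.50 and 12.50 in control hearts (0.57 ± 0.085, SE; limma, adjusted p = 0.0196). Both calls were lost without control replicate 4 or without any 1 DKO array, where the differences were 0.44 to 0.47 for Eef2 and 0.56 to 0.60 for Eif4b. With no filter both were lost as well (limma, adjusted p = 0.102 for Eef2 and 0.0991 for Eif4b), and Eif4b was lost with normexp background correction (limma, adjusted p = 0.0741 and 0.0558 by scaling) and with the slide row as a block (limma, adjusted p = 0.0619). Over this list 9 genes had an unadjusted p below 0.05 and a higher mean in DKO (11.6% of all genes), and 10 had every DKO array above the controls (13.2% of all genes).

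Of 12 S6 kinase and regulator genes fitted, 1 rose and 0 fell (2.41% and 2.29% of all genes), and the list's median was 0.01. At an unadjusted p below 0.05 (limma), 2 were higher and 0 lower, against 11.6% and 13.9% of all genes. Every DKO array lay above the controls for 2 genes and below them for 1, against 13.2% and 12.5% of all genes. Maf1, a repressor of RNA polymerase III that mTORC1 phosphorylates, rose by 0.44 ± 0.085 (SE; limma, adjusted p = 0.0367), a call lost without control replicate 3 or 4 or any 1 DKO array. It was also lost with normexp (limma, adjusted p = 0.118 and 0.114 by scaling), with no filter (limma, adjusted p = 0.155) and with the slide row as a block (limma, adjusted p = 0.0973). Of 7 chaperones of ribosomal proteins 0 were called by limma, and their median was -0.04. At an unadjusted p below 0.05, 1 was higher and 1 lower, against 11.6% and 13.9% of all genes. The groups did not overlap for 1 gene in each direction, against 13.2% and 12.5% of all genes. Grwd1, a chaperone of Rpl3, differed by 0.52 and Heatr3, an adaptor for import of Rpl5, by -0.34, with no overlap between groups for either (limma, adjusted p = 0.0735 and 0.122). Grwd1 was called when limma's variance followed signal level (adjusted p = 0.0356). With each gene's probes averaged it differed by 0.68 and was called (limma, adjusted p = 0.0274), whereas Heatr3 then differed by -0.17 (limma, adjusted p = 0.203).

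The proteins of the mitochondrial ribosome, which are encoded by other nuclear genes, had a median difference of the opposite sign. Of 78 fitted, 60 were lower in DKO and the median difference was -0.11. At an unadjusted p below 0.05, 21 were lower (13.9% of all genes) and 3 higher, and in 26 every DKO array lay below every control array (12.5% of all genes). At an adjusted p below 0.05, 2 were lower (2.29% of all genes) and 0 higher, a share close to that over all genes. Mrps12, 32 tested named genes from Akt2 on chromosome 7, read 12.60, 12.47 and 12.68 in DKO hearts, against 13.54, 13.63, 13.54 and 13.63 in control hearts. It fell by 1.0004 on the log2 scale (SE 0.079; limma, adjusted p = 0.00454). Mrpl19 fell by 0.57 (SE 0.093; limma, adjusted p = 0.0246), a call lost without control replicate 4 or any 1 DKO array, with no filter (limma, adjusted p = 0.114) and with the slide row as a block (limma, adjusted p = 0.0505). The difference between the cytosolic and the mitochondrial set was not tested.

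**Figure D5:**
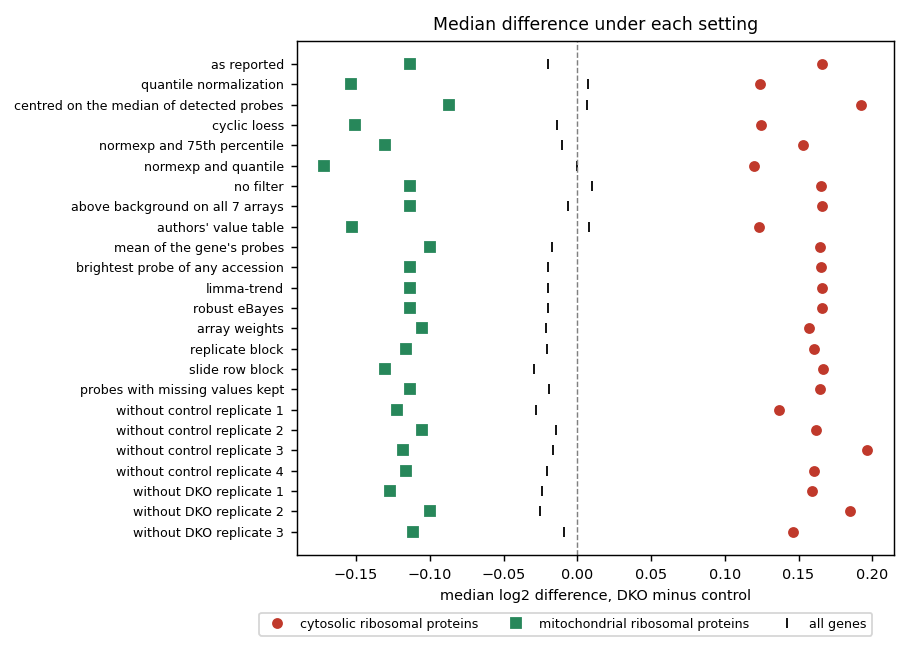
Median log2 difference, DKO minus control, over cytosolic ribosomal proteins, mitochondrial ribosomal proteins and all genes under each processing setting and with each array left out. The cytosolic median lies between 0.12 and 0.20, the mitochondrial one between -0.17 and -0.09.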

How the data were processed

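Per the file headers, the authors used Feature Extraction 12.0.3.1, and each spot's processed signal is a linear, background-subtracted intensity. A table of log2 values deposited by the authors matched quantile-normalized signals centred on each probe's median (column medians 0), and served as an alternative. Control spots and outlier spots were left out, log2 of the signal was set to each array's 75th percentile (mean 9.14 added back) and spots of a probe were averaged, so that a change shared by most transcripts is not visible. Accessions were named through a RefSeq table of GRCm38.p6, and 32994 of 56605 probes matched. Probes well above background on at least 3 of 7 arrays with no missing value were kept, the brightest per gene. The comparison used R 4.3.3 and limma 3.58.1 (lmFit, eBayes, group only), checked on simulated data. Promoter letters and figures were handled in Python 3.11.15 with matplotlib 3.10.9. The share of probes above background ran from 50.9% to 55.7%, with 0 saturated spots. Arrays correlated at 0.984 to 0.994 within groups and 0.978 to 0.990 between them. The number of arrays limits the precision. Values of some single genes are not reported here. Members and lists were chosen with earlier results of these data known. Named members were the 10 with the smallest p in each direction (8 were lower), paralogs, stalk, 5S particle, Rps6, Rpsa and neighbours of Akt genes; of other lists, called genes or the 2 with the smallest p.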

Additional observations from a re-analysis of the deposited data

Results flagged for a closer look

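In the 4 control hearts, 5 of 45 items tested had 1 array set apart, by a gap to its nearest neighbour over the group's range above 0.829, and chance gives about 5 in 100. The ratio was 0.943 for Rpl11, where control replicate 3 read 16.36 and the others 16.22 to 16.23. It was 0.899 for Grwd1, where control replicate 1 read 9.38 and the others 9.61 to 9.64. Control replicate 4 stood apart for Rpl36al, with a ratio of 0.864, and for Rpl39, with a ratio of 0.848. The ratio was 0.837 for Rpl7l1, where control replicate 3 was the low one at 8.42. The median over members did not meet this criterion.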

How the results depend on the processing

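Members called higher numbered 14 with limma-trend and 1 with array weights, and 0 in every other setting and with any array left out; 0 were called lower throughout. The median over members was 0.12 to 0.19 across settings and 0.14 to 0.20 with 1 array left out. Signs turned for 5 genes with differences near 0. Rpl3 became 0.0068 with median centring, 0.017 with the mean of probes and -0.083 to 0.054 with 1 array left out, and Rps27l 0.012, 0.013 and -0.042 to 0.0093 in the same settings. Rpl14 became 0.018 with median centring, 0.14 and 0.094 with normexp and percentile or quantile scaling, 0.011 with array weights, 0.047 with the slide row block and -0.059 to 0.088 with 1 array left out. Rpl7l1 became 0.00018 with normexp and quantile scaling and -0.14 to 0.033 with 1 array left out, and Rps23rg1 0.0086 with array weights and -0.18 to 0.023. The cause was not tested.

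Genes called over the whole series numbered 1114, but 2007 with limma-trend, 1680 with array weights, 555 with normexp, 288 with the slide row block, 121 with no filter and 160 to 1127 with 1 array left out. Members higher at an unadjusted p below 0.05 numbered 31, but 44 with limma-trend, 37 with median centring, 20 with quantile scaling, 16 with cyclic loess, 17 with no filter and 14 with normexp and quantile scaling. Replicate numbers did not pair the arrays (correlations of deviations 0.13, 0.01 and 0.03). With a replicate block, which sets aside control replicate 4, the median over members was 0.16, 0 members and 1 gene were called, Mrps12 was no longer called (limma, adjusted p = 0.123), and 6 members had an unadjusted p below 0.05. The files have no mean spot signal, so normexp used the median signal. Keeping probes with a missing value, an alternative chosen after seeing the data, gave a median of 0.16 over 84 members and 0 called.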
